A study of Mus musculus with 20 samples.

Results

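The genes carried by the mitochondrial chromosome itself were followed in C2C12 myotubes treated with agrin and with antibodies against MuSK. All rows of the deposited gene table whose mouse symbol starts with mt- were taken, which gave 24 of 26722 genes. They comprise 2 ribosomal RNA genes, 11 protein-coding genes and 11 transfer RNA genes. The annotation of the GRCm38 build lists 37 such genes, and the other 13, among them mt-Atp8 and mt-Nd4l, are not analysed here.

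Mitochondria keep a small circular chromosome of their own. Its genes encode the RNA of the mitochondrial ribosome, the tRNAs used on it, and core subunits of the respiratory chain complexes I, III and IV and of ATP synthase (complex V). Both strands are transcribed as long precursors that the mitochondrial RNA polymerase makes with the help of Tfam and Tfb2m, and the tRNAs between the other genes are cut out to release rRNAs and mRNAs. The rRNA genes lie near the start of the heavy-strand transcript. An earlier stop behind them has been proposed as a source of the excess of rRNA over mRNA, and stability differs between the mRNAs. Skeletal muscle relies on this chromosome heavily, and its expression grows as myoblasts become myotubes.

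C2C12 is a mouse myoblast line whose cells fuse into multinucleated myotubes. MuSK is the receptor tyrosine kinase through which nerve-derived agrin organises the neuromuscular synapse. The cells were differentiated for 5 days and treated for 16 h, with 4 replicates for each of 5 treatments, 20 libraries in all. Every treatment contained 7.7 nM of an antibody. The control received b12, a negative control antibody, and the bivalent group received 13-3B5, which activates MuSK. The agrin group received 0.1 nM neural agrin with b12. Agrin with 13-3B5xb12 and agrin with 11-3F6xb12 carried the same 0.1 nM agrin and an antibody with a single MuSK-binding arm, described as inhibiting. All libraries come from 1 cell line, and the labels do not say what separates the biological replicates, so p-values measure the spread between these samples.

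The libraries were made from total RNA after removal of cytosolic rRNA, a preparation that does not select polyadenylated RNA. Total counts ran from 18424881 to 23343903 per library. Mitochondrial rRNA held 32.0 ± 3.27% of all counts (SD, n = 20), from 27.2% in agrin replicate 3 (Wilson 95% interval 27.2 to 27.3) to 38.3% in agrin with 11-3F6xb12 replicate 1 (interval 38.3 to 38.3). Mitochondrial mRNA held 0.729 ± 0.0642%. Because a change in such a large share moves every other share, levels are given as CPM on non-mt counts, a gene's count per 1000000 counts of genes outside the mitochondrial chromosome. Non-mt counts ran from 12413313 to 16141956. The 10 libraries of replicates 1 and 2 stood apart from the 10 of replicates 3 and 4 across genes, a split that the labels do not explain. Control replicate 2 and agrin with 13-3B5xb12 replicate 1 were set apart from the rest, and no measure for this is given here. The myotube label held, since all 10 myotube markers were expressed, among them titin (Ttn, 6874 CPM), skeletal actin (Acta1, 3458 CPM) and myogenin (Myog, 863 CPM) on average. Their summed level ran from 15533 to 22069 CPM and that of 5 markers of undifferentiated or dividing cells from 164 to 302 CPM.

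Parts of the mitochondrial chromosome were copied into the nuclear genome during evolution, and a read that matches both a mitochondrial gene and its copy cannot be assigned to one of them. The first 90 bases of mt-Co2, which encodes a subunit of complex IV, are shown with 2 annotated copies that align over its start. The annotated copy Gm28661 lies on chromosome 1 and Gm13341 on chromosome 2 (GRCm38), and capitals mark bases that differ from the mitochondrial gene.
mt-Co2: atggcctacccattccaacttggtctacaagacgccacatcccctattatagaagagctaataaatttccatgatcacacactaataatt
Gm28661: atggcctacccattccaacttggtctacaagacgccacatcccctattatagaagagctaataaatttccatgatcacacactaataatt
Gm13341: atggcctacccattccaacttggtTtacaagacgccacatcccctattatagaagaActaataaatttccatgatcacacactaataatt
Gm28661 has no difference in this stretch, while Gm13341 has 2 differences in 90 bases.

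For mt-Cytb, the complex III subunit cytochrome b, the closest copy has diverged further. Bases 2 to 91 are shown with the same stretch of Gm11410 on chromosome 4, where capitals mark 5 differences.
mt-Cytb: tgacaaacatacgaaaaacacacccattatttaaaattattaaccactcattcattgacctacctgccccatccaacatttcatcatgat
Gm11410: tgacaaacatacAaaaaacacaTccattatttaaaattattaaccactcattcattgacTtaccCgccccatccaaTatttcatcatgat
With differences at this spacing, a read of 150 bases from mt-Cytb can be told from its copy.

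Neighbouring mitochondrial genes also overlap. The tRNA genes mt-Tq (chromosome M, 3772 to 3842, minus strand) and mt-Ti (3706 to 3774, plus strand) share 3 bases on opposite strands, and mt-Tw (4950 to 5016, plus strand) shares its first 2 bases with the end of mt-Nd2, as the capitals mark.
mt-Tq: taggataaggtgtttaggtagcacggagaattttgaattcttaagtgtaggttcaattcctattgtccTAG
mt-Ti: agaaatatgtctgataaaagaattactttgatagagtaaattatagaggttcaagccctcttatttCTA
mt-Tw: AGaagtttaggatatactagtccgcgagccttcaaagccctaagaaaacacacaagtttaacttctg
These 3 genes are shorter than a read, so a read that covers one runs into its neighbours. How the counting treated reads over more than 1 gene, and whether it used strand, is not given in the sources used here.

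Counted levels per length differed widely between the mitochondrial genes. The large-subunit rRNA mt-Rnr2 (chromosome M, 1094 to 2675, plus strand) averaged 282744 CPM per kb of transcript over the 20 libraries. The small-subunit rRNA mt-Rnr1 (70 to 1024, plus strand) averaged 32795 CPM per kb, although the ribosome holds both in equal number. In each library mt-Rnr2 had 14.3 ± 0.846 counts for every count of mt-Rnr1 (SD, n = 20), without correction for length. The removal step targets rRNA, and its part in this ratio was not tested.

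Among mRNAs, mt-Co1 (5328 to 6872, plus strand), the catalytic subunit of complex IV, led with 6526 CPM per kb. The complex I subunit mt-Nd1 (2751 to 3707) followed with 318 CPM per kb and mt-Cytb (14145 to 15288) with 268 CPM per kb. The other complex I subunits were lower, with 64.3 CPM per kb for mt-Nd5, 29.3 for mt-Nd6, 15.9 for mt-Nd2 and 13.9 for mt-Nd4. At the bottom were mt-Co3 with 11.4 CPM per kb, mt-Co2 with 2.45, mt-Nd3 with 0.378 and the ATP synthase subunit mt-Atp6 with 0.263. Of all mRNA counts, mt-Co1 alone held 92.7 ± 0.957% (SD, n = 20), so the sum over mRNAs is close to a reading of mt-Co1.

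**Figure D1:**
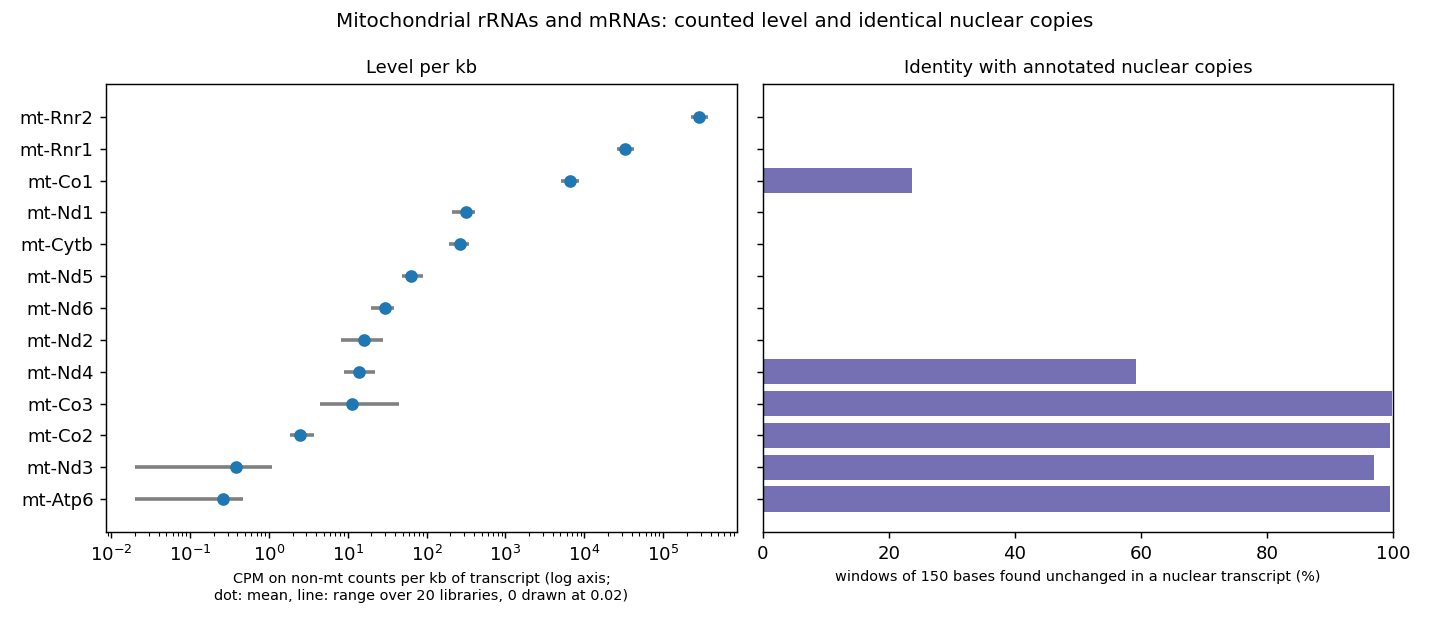
Level of the 2 mitochondrial rRNAs and 11 mRNAs in CPM on non-mt counts per kb of transcript (log axis, dot for the mean and line for the range over 20 libraries), beside the percentage of windows of 150 bases that occur unchanged in an annotated nuclear transcript. The 4 mRNAs with 96.98% to 99.84% of their windows in a nuclear copy are the 4 with the lowest levels.

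The low end of this order coincides with the nuclear copies. Of all windows of 150 bases, the read length, 99.84% of mt-Co3, 99.44% of mt-Co2, 99.44% of mt-Atp6 and 96.98% of mt-Nd3 occurred unchanged in an annotated nuclear transcript. For mt-Nd4 the share was 59.15% and for mt-Co1 23.64%. For mt-Rnr1, mt-Rnr2, mt-Nd1, mt-Nd2, mt-Nd5, mt-Nd6 and mt-Cytb it was 0%. Counts of the copies against those of their mitochondrial twins differed from gene to gene. For 2 pairs they were close, with a mean of 23.65 counts per library for Gm28661 beside 24.75 for mt-Co2, and 122.05 for Gm28437 beside 131.85 for mt-Co3. The copies of mt-Nd3 and mt-Atp6 exceeded their twins, with 14.70 counts for Gm28438 beside 1.95 and 4.55 for Gm10925 beside 2.60. Gm28439, identical to 876 bases of mt-Nd4, had 0.30 counts beside 281.95 for mt-Nd4. The copies of mt-Co1 were far lower, with 74.70 counts for Gm29216 and 46.30 for Gm13340 beside 147918 for mt-Co1. Values of mt-Co2, mt-Co3, mt-Atp6 and mt-Nd3, and in part of mt-Nd4, are therefore uncertain as levels. Comparisons between treatments rest mainly on the 7 genes without an identical window and on mt-Co1.

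Transfer RNA counts were near the floor, with 11 tRNA genes summing to a mean of 55.9 counts per library. The 3 highest, mt-Tp, mt-Tq and mt-Tw, averaged 11.50, 11.40 and 11.00 counts. Tests in edgeR were run on the genes that passed a filter on low counts, which kept 14593 genes and 16 of the 24 mitochondrial genes. These are both rRNAs, 9 mRNAs (all except mt-Atp6 and mt-Nd3) and 5 tRNAs.

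Whether activation or inhibition of MuSK shifted mitochondrial rRNA was asked across the 5 treatments. Myotubes given agrin with 11-3F6xb12 had the highest mean of summed rRNA, 543479 ± 96979 CPM, and those given agrin alone the lowest, 444517 ± 68952 CPM (SD, n = 4 each). The control had 451462 ± 55151 CPM, bivalent 13-3B5 487391 ± 75848 CPM, and agrin with 13-3B5xb12 466246 ± 57326 CPM. Spread within treatments was wide and followed the replicate number. In replicates 1 to 4 the control gave 520015, 420558, 395478 and 469798 CPM, agrin 513229, 493976, 377896 and 392967 CPM, and agrin with 11-3F6xb12 629731, 625106, 462748 and 456330 CPM. The ranges of treatments overlapped in all 8 comparisons, although rRNA was higher with agrin and 11-3F6xb12 than with agrin alone in 4 of 4 replicate numbers. As these are bulk samples, fewer mitochondria or cells and less mitochondrial RNA per cell cannot be told apart. The part of the rRNA removal step in these levels, and in the mRNA to rRNA ratios below, was not tested.

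For the summed mRNA, agrin with 11-3F6xb12 had 12420 ± 1880 CPM and agrin alone 10177 ± 723 CPM (SD, n = 4 each). The control had 11034 ± 470 CPM, bivalent 13-3B5 10879 ± 1161 CPM, and agrin with 13-3B5xb12 9855 ± 897 CPM. These ranges overlapped in all 8 comparisons as well. In replicates 1 to 4, agrin gave 11108, 10359, 9460 and 9782 CPM and agrin with 11-3F6xb12 gave 13552, 14465, 11054 and 10610 CPM. The second treatment was thus higher in 4 of 4 numbers, and its replicates 1 and 2 were the highest of all 20 libraries.

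The ratio of the sums was taken from the counts. Per 100 rRNA counts, the control had 2.46 ± 0.217 mRNA counts, agrin 2.31 ± 0.213 and bivalent 13-3B5 2.25 ± 0.164 (SD, n = 4 each). Agrin with 13-3B5xb12 gave 2.15 ± 0.375 and agrin with 11-3F6xb12 gave 2.29 ± 0.101. The lowest ratio was 1.63 in agrin with 13-3B5xb12 replicate 1, and the highest 2.65 in control replicate 2. These are the same libraries that were set apart above. Between agrin with 11-3F6xb12 and agrin alone, the rRNA sum differed by 0.29 on the log2 scale (pooled SD 0.24), the mRNA sum by 0.28 (pooled SD 0.17) and their ratio by -0.01 (pooled SD 0.10). Ranges of the ratio overlapped in all 8 comparisons.

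**Figure D2:**
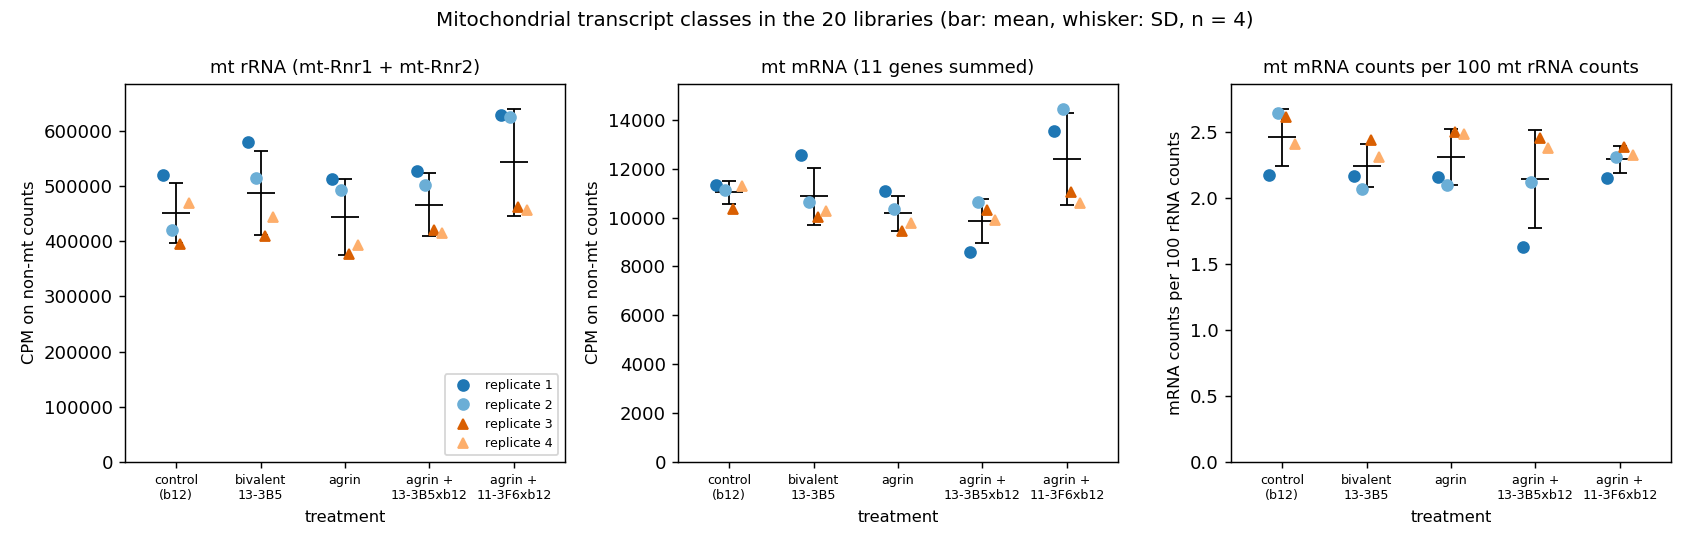
Summed mitochondrial rRNA and summed mRNA (both in CPM on non-mt counts) and mRNA counts per 100 rRNA counts for each treatment, with 1 point per library, the mean as a bar and the SD as a whisker (n = 4). Replicates 1 and 2 (circles) carry more rRNA than replicates 3 and 4 (triangles) in most treatments, and the ranges of treatments overlap in all 3 plots.

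Without mt-Co1, the other 10 mRNAs summed to 683 ± 77.1 CPM in the agrin libraries and 924 ± 78.6 CPM in those of agrin with 11-3F6xb12 (SD, n = 4 each). The control had 852 ± 115 CPM, bivalent 13-3B5 752 ± 51.5 CPM, and agrin with 13-3B5xb12 740 ± 75.6 CPM. In replicates 1 to 4 agrin gave 652, 596, 705 and 777 CPM, and agrin with 11-3F6xb12 gave 908, 1018, 828 and 941 CPM. The second was higher by 0.44 on the log2 scale, with no overlap between these 8 libraries. This sum is mainly mt-Cytb and mt-Nd1, with means of 306 and 305 CPM over the 20 libraries, followed by mt-Nd5 with 117 CPM. It is therefore not independent of the values of mt-Nd1 and mt-Cytb given below. Leaving out mt-Co1 was chosen after its share had been seen.

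Of the 11 rRNAs and mRNAs that entered the tests, mt-Nd1 and mt-Nd2 had levels with agrin and 11-3F6xb12 that did not overlap those with agrin. In that comparison 0% of all genes had an adjusted p under 0.05 in edgeR and 3.36% an unadjusted p under 0.05. The share of all genes without overlap is not given here, so the lack of overlap has no background to be read against. The first, mt-Nd1, is a complex I subunit encoded directly behind the rRNAs. Its level in replicates 1 to 4 was 241, 203, 271 and 312 CPM with agrin, and 352, 392, 360 and 387 CPM with agrin and 11-3F6xb12. All 4 values of the second treatment lay above all 4 of the first, with means of 373 ± 20.01 and 256 ± 46.2 CPM (SD, n = 4 each), a ratio of 1.47. The control lay between and across them with 258, 276, 364 and 386 CPM. Bivalent 13-3B5 gave 269, 247, 325 and 322 CPM and agrin with 13-3B5xb12 225.5, 244, 354 and 307 CPM. In these 3 treatments and in agrin, replicates 3 and 4 were higher than replicates 1 and 2, while with agrin and 11-3F6xb12 replicates 3 and 4 lay between replicates 1 and 2.

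The complex I subunit mt-Nd2 (3914 to 4951) was lower and more variable. It had 10.9, 8.49, 11.0 and 14.9 CPM in replicates 1 to 4 with agrin and 18.0, 21.3, 16.0 and 24.0 CPM with agrin and 11-3F6xb12, again without overlap, a ratio of 1.76. The control ran from 9.62 to 28.9 CPM and overlapped both. For mt-Cytb, agrin gave 240, 220, 260 and 319 CPM and agrin with 11-3F6xb12 338, 396, 298 and 366 CPM, which overlap. The control gave 242, 394, 344 and 357 CPM, which overlaps both, while agrin replicates 1 and 2 lay below every control.

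The most abundant mRNA, mt-Co1, had 10456, 9763, 8755 and 9005 CPM with agrin and 12644, 13446, 10225 and 9669 CPM with agrin and 11-3F6xb12. Replicates 1 and 2 of the second treatment exceeded every other library, and replicates 3 and 4 lay within the range of agrin alone. The complex I subunit mt-Nd5 (11742 to 13565) was also highest in replicates 1 and 2 of that treatment, with 151, 162, 113 and 110 CPM with agrin and 11-3F6xb12 beside 116, 119, 117 and 93.4 CPM with agrin. The level of mt-Nd6 (13552 to 14070), the only mRNA read from the minus strand, ran from 10.3 to 19.9 CPM over all libraries. The SD over libraries was 15.7% of the mean for mt-Nd6, 15.7% for mt-Nd5 and 12.9% for mt-Co1. Treatment means of mt-Nd6 ran from 13.96 ± 1.63 CPM with agrin and 13-3B5xb12 to 16.7 ± 2.41 CPM with agrin and 11-3F6xb12 (SD, n = 4 each).

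**Figure D3:**
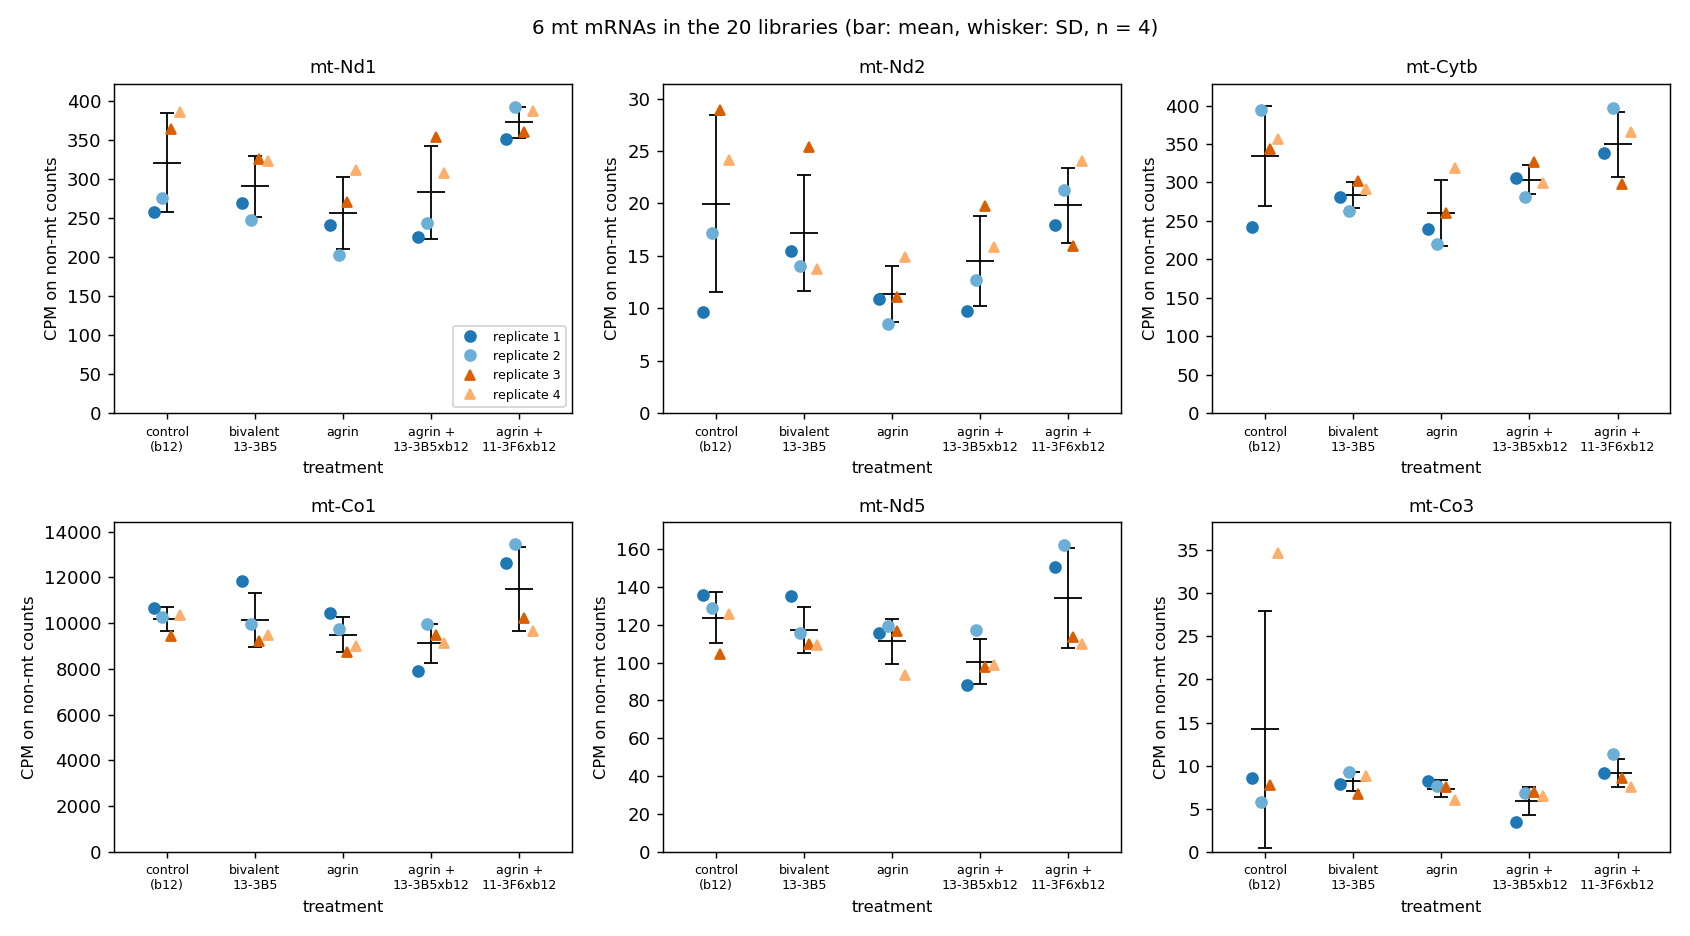
Levels of 6 mitochondrial mRNAs in CPM on non-mt counts by treatment, with 1 point per library, the mean as a bar and the SD as a whisker (n = 4). The values of mt-Nd1 and mt-Nd2 with agrin and 11-3F6xb12 lie above all values with agrin alone, and the high mean of mt-Co3 in the control comes from 1 library at 34.7 CPM.

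In the edgeR quasi-likelihood test with treatment as the only term, 0 of 16 mitochondrial genes had an adjusted p under 0.05 in any of the 8 comparisons, as had 0 of all 14593 genes (0%). DESeq2 also called 0 mitochondrial genes. The count at an unadjusted p under 0.05 was 8 of 16 for agrin with 11-3F6xb12 against agrin, where 3.36% of all genes reached it, and DESeq2 gave 8 too. It was 3 of 16 for agrin against control (2.86% of all genes, DESeq2 5) and 1 for bivalent 13-3B5 against control (2.79%, DESeq2 1). For bivalent 13-3B5 against agrin it was 2 (2.4%, DESeq2 3), and for agrin with 13-3B5xb12 against agrin 1 (3.83%, DESeq2 2). Against the control, agrin with 13-3B5xb12 gave 3 (2.38%, DESeq2 3) and agrin with 11-3F6xb12 gave 0 (3.26%, DESeq2 2). The 2 single-arm antibodies against each other gave 3 (4.24%, DESeq2 3). A test for any difference among the 5 treatments gave 6 (2.25%, DESeq2 8), and with the term for the replicate sets described below it called mt-Nd1 (0.0343% of all genes called). Among the 8 for agrin with 11-3F6xb12 against agrin were 5 mRNAs and 1 rRNA, and the rest were tRNAs with few counts. Several of these comparisons share the agrin or the control libraries and are not independent. The 16 genes are not independent either, since the levels of several correlate across libraries, so the counts do not stand for separate results.

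Between agrin with 11-3F6xb12 and agrin, 8 of 9 mRNAs had a positive log2 fold change, with a median of 0.32, while 7178 of all 14593 genes were positive and their median was -0.00. For mt-Nd1 the log2 fold change was 0.54 (SE 0.16, unadjusted p = 0.00317 and adjusted p = 1.00 in edgeR). The value was 0.42 for mt-Cytb (SE 0.12, unadjusted p = 0.00149), 0.80 for mt-Nd2 (SE 0.29, unadjusted p = 0.0117) and 0.27 for mt-Co1 (SE 0.10, unadjusted p = 0.0110). The rRNAs gave 0.30 for mt-Rnr2 (SE 0.13, unadjusted p = 0.0364) and 0.14 for mt-Rnr1 (SE 0.15, unadjusted p = 0.380). None passed the adjusted threshold in this fit.

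Same-numbered libraries of these 2 treatments deviated together, as described under the processing. Over all treatments, libraries of another number within the same set (1 and 2, or 3 and 4) did so nearly as much. Their mean correlation across genes was 0.179, beside 0.181 for the same number. The fit with replicate number as a block is given beside the fit above. With the block, mt-Nd1 was higher with agrin and 11-3F6xb12 by 0.56 (SE 0.09, adjusted p = 0.00988 in edgeR), 1 of 2 genes called among all genes (0.0137%). In this blocked fit the other mitochondrial genes did not pass, with adjusted p = 0.647 for mt-Rnr2, 0.711 for mt-Cytb and 0.770 for mt-Co1. The call for mt-Nd1 was held in 4 of 8 blocked fits that each left out 1 of these libraries, where its log2 fold change ran from 0.45 to 0.64 and its adjusted p from 0.00112 to 0.147. It was lost without agrin replicate 2 or 3, and without agrin with 11-3F6xb12 replicate 1 or 2. Fits within replicates 1 and 2 gave 0.75 (SE 0.11, adjusted p = 0.0134, 0.00678% of all genes called) and within replicates 3 and 4 gave 0.35 (SE 0.08, adjusted p = 0.143, 0.0605%). With a term for the 2 replicate sets in place of the block it was 0.56 (SE 0.08, adjusted p = 0.00190, 0.0137%). DESeq2, with treatment only, gave an adjusted p of 0.508 for this gene.

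With replicate number as a block, 1 of 9 tested mRNAs had a positive log2 fold change in agrin against control. With treatment as the only term all 9 were negative, with a median of -0.18, while 7298 of 14593 genes were positive. In edgeR the unadjusted p was under 0.05 for mt-Cytb at -0.36 (unadjusted p = 0.00559), mt-Nd2 at -0.81 (unadjusted p = 0.0108) and mt-Co3 at -0.96 (unadjusted p = 0.0306), all with an adjusted p of 1.00. The mt-Co3 value rests on control replicate 4, since without that library it was -0.0027, and within replicates 1 and 2 it was 0.14. Agrin with 13-3B5xb12 against control had a median of -0.19 with 1 of 9 mRNAs positive, and bivalent 13-3B5 against control -0.14 with 1 positive. Agrin with 11-3F6xb12 against control had a median of 0.11 with 6 positive. Side by side, then, mRNA medians lay below the control in the first 3 of these groups, without any call. The rRNA medians in the same 4 comparisons were 0.01 with agrin, 0.01 with agrin and 13-3B5xb12, 0.11 with bivalent 13-3B5 and 0.23 with agrin and 11-3F6xb12.

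For the 2 single-arm antibodies, which share agrin and dose and differ in the MuSK-binding arm, all 9 mRNAs were positive for 11-3F6xb12 against 13-3B5xb12, with a median of 0.35. In edgeR the value was 0.41 for mt-Nd1 (unadjusted p = 0.0187), 0.35 for mt-Co1 (unadjusted p = 0.00181) and 0.43 for mt-Nd5 (unadjusted p = 0.00189), all with an adjusted p of 0.992. With a term for replicates 1 and 2 against 3 and 4, chosen after the split had been seen, mt-Nd1 was called at 0.44 (SE 0.08, adjusted p = 0.0310, 0.0685% of all genes called). Within replicates 1 and 2 it was 0.68 (SE 0.11, adjusted p = 0.0157, 0.0407%), and within replicates 3 and 4 it was 0.17 (SE 0.08, adjusted p = 1.00, 0.047%). Whether these values differ between the replicate sets was not tested. Of the 11 tested rRNAs and mRNAs, mt-Co3 did not overlap between these 2 treatments, at 0.64 (unadjusted p = 0.144 in edgeR). Here too the share of all genes without overlap is not given. The mt-Co1 and mt-Nd5 ranges overlap, since agrin with 13-3B5xb12 replicate 2, at 9943 and 117 CPM, exceeds the lowest values of the other group.

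**Figure D4:**
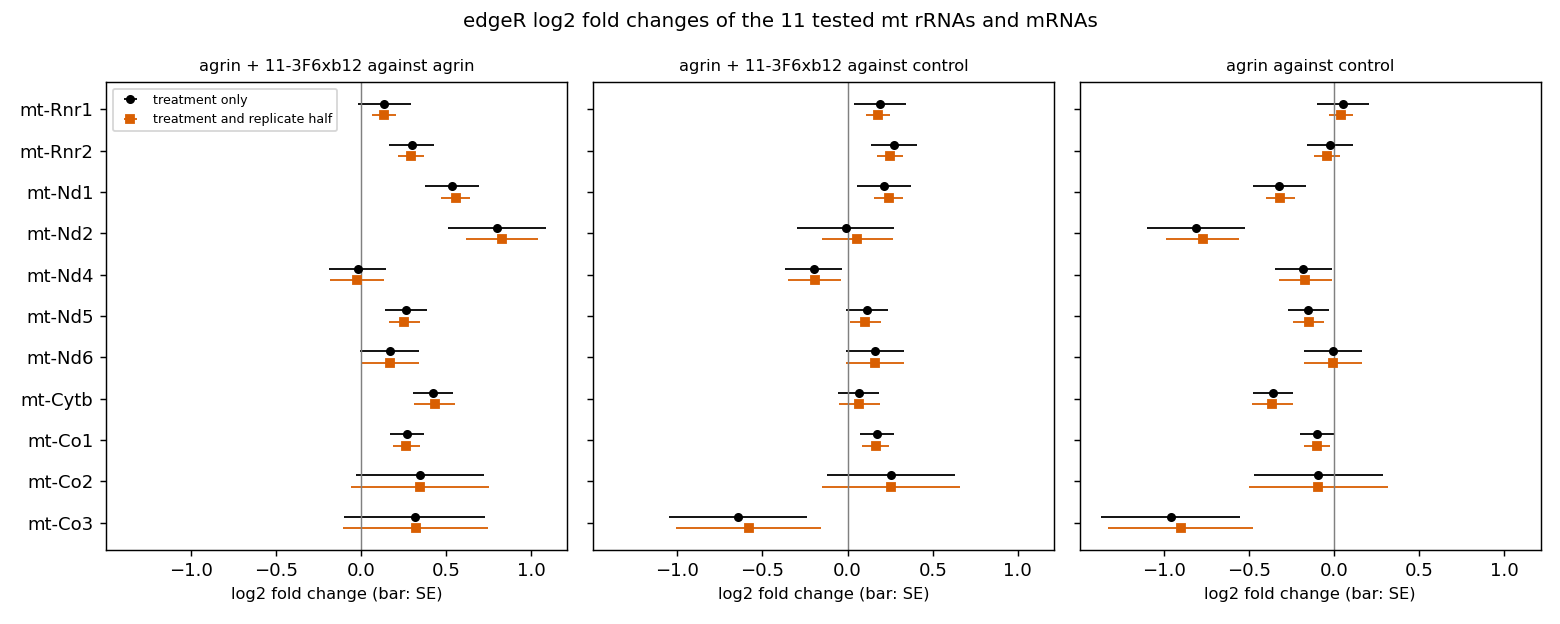
Log2 fold changes of the 2 mitochondrial rRNAs and 9 tested mRNAs from edgeR for 3 comparisons, with the SE as a bar, in a fit with treatment only (circles) and one that adds a term for replicates 1 and 2 against 3 and 4 (squares). Most mRNA values lie above 0 for agrin with 11-3F6xb12 against agrin and below 0 for agrin against control, with smaller SEs for mt-Nd1 and the rRNAs once the term is added.

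Transfer RNA counts were too few for a comparison of levels. For mt-Tw, agrin had 1, 2, 7 and 3 counts and agrin with 11-3F6xb12 had 32, 4, 16 and 33. Its log2 fold change of 2.72 (SE 0.75, unadjusted p = 0.00114, edgeR) therefore rests on single-digit counts. The ranges overlap through replicate 2 of the second treatment. For mt-Tp the counts were 1, 2, 10 and 6 with agrin and 19, 13, 11 and 18 with agrin and 11-3F6xb12, and for mt-Tq 7, 11, 10 and 6 beside 15, 6, 16 and 16. The other tRNA genes averaged under 10 counts.

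Whether mRNAs follow the rRNA from library to library was asked next. The sums of mRNA and rRNA had a Pearson r of 0.70 and a Spearman rho of 0.69 over 20 libraries, on log2 CPM. Points share their library and its non-mt total, which enters both levels, so no p is given. Because the libraries fall into 2 sets by replicate number, r was also taken within replicates 1 and 2, where it was 0.61 (n = 10), and within replicates 3 and 4, where it was 0.89 (n = 10). These values still hold the differences between treatments. On deviations from the mean of each treatment within each set, which are pairs of libraries, r fell to 0.35. Leaving out the 2 libraries farthest in rRNA, agrin with 11-3F6xb12 replicates 1 and 2, lowered the pooled r to 0.44 (n = 18). Leaving out agrin with 13-3B5xb12 replicate 1, which had low mRNA for its rRNA, raised it to 0.89. The relation of the sums is that of mt-Co1: without it r was 0.015 over all libraries, 0.44 within replicates 1 and 2, and 0.65 within replicates 3 and 4.

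Set against mt-Rnr2 one by one, the mRNAs differed. Over 20 libraries, r with mt-Rnr2 was 0.93 for mt-Rnr1, 0.72 for mt-Co1 and 0.65 for mt-Nd5. It was -0.12 for mt-Nd1, -0.19 for mt-Nd2 and -0.03 for mt-Cytb. Within the 2 sets of replicates the picture differed, since mt-Nd1 had an r of 0.64 within replicates 1 and 2 and of 0.73 within replicates 3 and 4 (n = 10 each), with the treatments still included. On deviations from the mean of each treatment within each set, r with mt-Rnr2 was 0.12 for mt-Nd1, 0.35 for mt-Co1, 0.25 for mt-Nd5 and 0.76 for mt-Rnr1. Levels of the rRNAs and of mt-Nd1 went in opposite directions between the sets. Mean mt-Rnr2 was 497408 CPM in replicates 1 and 2 and 397193 CPM in replicates 3 and 4, and mt-Rnr1 35390 and 27248 CPM. Mean mt-Nd1 was 271 and 339 CPM, and mt-Nd2 13.7 and 19.4 CPM. Replicates 3 and 4 both lay below replicates 1 and 2 in 5 of 5 treatments for mt-Rnr1 and in 4 of 5 for mt-Rnr2, and both lay above them in 4 of 5 for mt-Nd1. Levels of mt-Co1 went with the rRNAs, at 10690 and 9476 CPM, as did mt-Nd5 at 127 and 108 CPM.

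**Figure D5:**
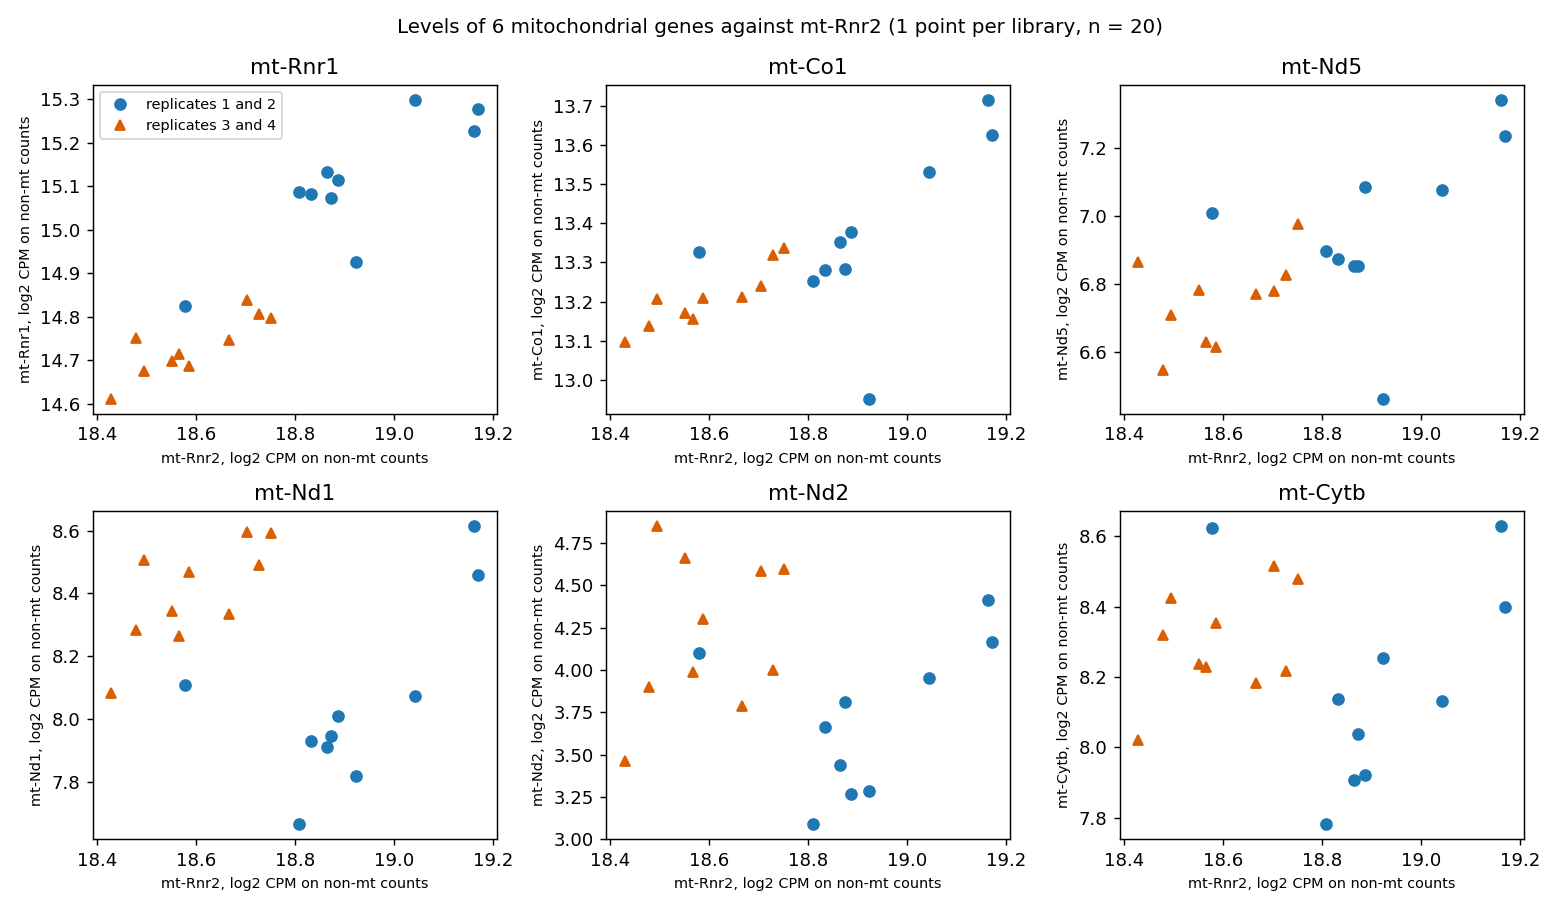
Level of 6 mitochondrial genes against that of mt-Rnr2, both in log2 CPM on non-mt counts, with 1 point per library (n = 20), circles for replicates 1 and 2 and triangles for replicates 3 and 4. The points of mt-Rnr1, mt-Co1 and mt-Nd5 rise along 1 band, while those of mt-Nd1 rise within each set of replicates and the sets are offset against each other.

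A pair of mRNA groups also appeared among the mRNAs themselves. Over 20 libraries r was 0.91 between mt-Co1 and mt-Nd5, 0.86 between mt-Nd1 and mt-Nd2, 0.78 between mt-Nd2 and mt-Cytb, and 0.75 between mt-Nd1 and mt-Cytb. Between mt-Nd1 and mt-Co1 it was 0.29. After treatment and replicate set had been taken out, r was 0.74 for mt-Co1 with mt-Nd5, 0.63 for mt-Nd1 with mt-Nd2, 0.55 for mt-Nd1 with mt-Co1 and 0.076 for mt-Nd1 with mt-Nd5. These groups were noticed in these data and carry no test.

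In a fit of every gene on the mt-Rnr2 level within treatments, a slope of 1 means that a gene changes by the same factor as mt-Rnr2. Of 9 tested mRNAs, 2 had an adjusted p under 0.05, both with a positive slope, where 9.57% of 14592 genes were called and 5.37% were called with a positive slope. These were mt-Co1 with a slope of 0.54 (SE 0.12, adjusted p = 0.00366 in edgeR) and mt-Nd5 with 0.65 (SE 0.15, adjusted p = 0.00486). For mt-Rnr1 the slope was 1.08 (SE 0.10, adjusted p = 6.5e-08). The slope was -0.64 for mt-Nd1 (adjusted p = 0.0956), -1.13 for mt-Nd2 (adjusted p = 0.0878) and -0.31 for mt-Cytb (adjusted p = 0.409), and between 0.15 and 0.67 for mt-Nd4, mt-Co2, mt-Nd6 and mt-Co3 without a call. Unadjusted p was under 0.05 for 4 of 9 mRNAs, beside 21.9% of all genes. Without control replicate 4, mt-Nd1 and mt-Nd2 were called too, with negative slopes, which made 4 of 9, beside 1504 of 14966 genes. Without agrin with 11-3F6xb12 replicate 2, mt-Nd1 was called in addition (1181 of 14972 genes called), and without its replicate 3, mt-Nd2 (1239 of 14965).

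These slopes mix differences between the replicate sets with those inside them. With replicate number as a block, the slope of mt-Co1 was 0.82 (adjusted p = 0.166), that of mt-Nd5 0.84 (adjusted p = 0.244) and that of mt-Rnr1 0.74 (adjusted p = 0.126), none of them called. The slope of mt-Nd1 turned to 0.75 (adjusted p = 0.266). The share of all genes called fell to 0.137%. The 1 mRNA called there was mt-Co3, with a slope of 5.41 (adjusted p = 0.00268), and it rests on control replicate 4, since without that library the blocked fit called 0 mRNAs. Within replicates 1 and 2 (0% of all genes called) and within replicates 3 and 4 (0.0134%), edgeR called 0 mRNAs, with 1 of 9 at an unadjusted p under 0.05 in each, beside 5.41% and 4.99% of all genes. In the fit without the block, edgeR called 2 of 10 myotube markers, Ckm (muscle creatine kinase, slope 1.86) and Tnnt3 (fast troponin T, slope 1.16), with a median slope of 0.15 over the list. It called 1 of 4 fibroblast markers, Col14a1 (slope 2.51). With the block 0 of either list were called. The parts of the myotubes' state and of the rRNA removal step in the slopes were not tested.

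Nuclear genes that serve the mitochondrial chromosome were read from 5 lists. No member was called in any comparison or in the slope fit in edgeR, and the smallest adjusted p in the comparisons was 0.992. For agrin with 11-3F6xb12 against agrin, unadjusted p was under 0.05 for 0 of 10 genes of mitochondrial transcription, 0 of 21 of RNA processing and stability, 1 of 11 of DNA replication, 1 of 11 of ribosome assembly and 0 of 8 biogenesis regulators, beside 3.36% of all genes. Levels were even across libraries. The transcription list summed to 271 to 318 CPM in the 20 libraries. Tfam, whose protein packages the chromosome and starts transcription, had a mean of 79.7 CPM, and the genes Mterf3 and Mterf4 had 45.8 and 35.9 CPM.

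Among processing genes, Lrpprc, which with Slirp stabilises mitochondrial mRNA, averaged 160 CPM, Slirp 78.3 CPM and the ribosome-associated Ptcd3 127 CPM. The replication list was led by the polymerase Polg (77.4 CPM), the ribonucleotide reductase subunit Rrm2b (71.8 CPM) and the single-strand binding protein Ssbp1 (44.8 CPM). The ribosome assembly list was led by the helicase Dhx30 (77.7 CPM), the rRNA methyltransferase Nsun4 (40.7 CPM) and the GTPase Mtg2 (28.5 CPM). Of the regulators, Gabpa had 139 CPM, and Nrf1 and Esrra had 41.5 CPM each.

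Further lists were read as checks for residue of rRNA removal and for other cells. Lars2, the mitochondrial leucyl-tRNA synthetase, whose annotation can collect rRNA reads in mouse data, ran from 2.696 to 137 CPM and was highest in control replicate 3, a library with low mitochondrial rRNA. Fibroblast markers summed to 26.8 to 57.8 CPM. The 7 liver markers in the table summed to at most 14 counts in 19 libraries and to 299 counts (18.8 CPM) in agrin replicate 3, where albumin (Alb) had 126. Without agrin replicate 3, the log2 fold change of mt-Nd1 in agrin with 11-3F6xb12 against agrin was 0.56 without the block and 0.53 with it (adjusted p = 0.102 in edgeR with the block). Of the 4 heart markers, Nppa and Myl7 were at most 3 counts, while 2, Myh6 and Myl4, passed the filter on low counts. Myl4, which embryonic skeletal muscle also expresses, averaged 1732 CPM, and the 4 summed to 1305 to 1946 CPM.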

How the data were processed

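The protocols in the labels name a miRNAeasy Mini kit for extraction, with libraries made with TruSeq Stranded Total RNA and Ribo-Zero, read as pairs of 150 bases on a NovaSeq instrument. The submitters' processing notes name Trim Galore 0.6.6, cutadapt 2.10, STAR 2.7.6a, HTSeq 0.12.4, DESeq2 1.32.0 and GRCm38, without parameters. The table the authors deposited holds raw counts per gene, whole numbers without normalization. Handling of reads with several matches is not given in the sources used here. The members and lists were chosen with earlier results of these data known.

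Counts were fitted in R 4.3.3 with edgeR 4.0.16 (robust quasi-likelihood F-test, 5 treatments in 1 model, 15 residual degrees of freedom), with library sizes and TMM factors from non-mt genes and filterByExpr (minimum count 10, minimum total 15). Benjamini-Hochberg adjustment ran over all genes tested, with a threshold of 0.05. The fit was also run on simulated counts that held no replicate sets, so its performance under that split was not tested. Class sums and ratios were described without a test. Correlations used log2 CPM, with 0.5 added to the counts of single genes and nothing added to the class sums. Replicates within a treatment differed by a chi-square of at least 5.17 per gene, so each was counted once. Intervals cover counting error only. Nuclear copies were found with BLAST 2.17.0 (identity of at least 90%, at least 150 bases) and exact windows in GENCODE M21 transcripts of GRCm38, which also gave sequences and positions.

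All mitochondrial rRNAs and mRNAs were named, tRNAs with a mean of at least 10 counts, called members of each nuclear list or else its 3 most abundant, and nuclear copies with at least 10 counts. Gm13341, Gm11410, Gm10925 and Gm28439 are given as examples outside this rule, and checks of labels name markers outside it.

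Replicate numbers come from the sample titles. Same-numbered libraries deviated together, with every pair's correlation over 0.1, in 4 comparisons: bivalent 13-3B5 against control and against agrin, and each single-arm antibody against agrin. Over all treatments the mean correlation across genes was 0.181 for the same number, 0.179 for another number of the same set (1 and 2, or 3 and 4) and -0.180 between the sets. It was over 0.1 in 33 of 40 pairs of the same number and in 34 of 40 of another number of the same set. The pairs therefore reflect the sets and not the numbers alone. Alternatives were the block, other normalisations and filters, DESeq2 1.42.0, fits of only 2 groups and removal of libraries.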

Additional observations from a re-analysis of the deposited data

Results flagged for a closer look

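In 5 of 70 groups of 4 libraries checked, 1 library lay far from the other 3 by Dixon's gap test. Chance gives about 1 in 20 such groups, and these groups share libraries and normalisation. The complex IV mRNA mt-Co3 had 34.7 CPM in control replicate 4 beside 5.80 to 8.57 CPM in the other controls, and its nuclear copy Gm28437, which it matches in 99.84% of windows, was highest elsewhere, at 291 counts in agrin with 11-3F6xb12 replicate 2 and 247 in control replicate 3. The same gene had 3.50 CPM in agrin with 13-3B5xb12 replicate 1 beside 6.45 to 6.90 CPM. Complex I mRNAs gave the other cases. Bivalent 13-3B5 replicate 3 had 25.4 CPM of mt-Nd2 beside 13.8 to 15.5 CPM, control replicate 2 had 30.2 CPM of mt-Nd4 beside 19.4 to 21.0 CPM, and agrin replicate 4 had 93.4 CPM of mt-Nd5 beside 116 to 119 CPM. Control replicate 2 and agrin with 13-3B5xb12 replicate 1 are also the libraries that were set apart above.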

How the results depend on the processing

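Replicate number as a block changed 1 call in the comparisons between treatments, mt-Nd1 in agrin with 11-3F6xb12 against agrin (1 mitochondrial gene called in place of 0), and no other. The blocked fits of that comparison called 0 to 1 with 1 library left out. The block without the 2 libraries set apart called 3 there (mt-Nd1, mt-Rnr2 and mt-Co1, among 16 of 14873 genes) and 1 in the test for any difference (mt-Rnr2, among 11 genes). In 12 of 20 libraries, the replicate number with the highest mean correlation over the other treatments was the library's own. Each set holds 2 numbers. A term for the 2 replicate sets gave 1 call in agrin with 11-3F6xb12 against agrin, 1 against agrin with 13-3B5xb12 and 1 for any difference, and replicates 1 and 2 alone gave 1, 1 and 1 (1, 6 and 3 of 14744 genes). Without the filter on low counts, calls among 26190 genes were 3 in agrin with 11-3F6xb12 against agrin (13 of all genes), 1 in agrin against control (mt-Nd2, 4 of all), 1 in agrin with 13-3B5xb12 against control (mt-Co3, 3 of all), 2 between the single-arm antibodies (28 of all) and 4 for any difference (50 of all). Other normalisations, a minimum mean count of 10, 2-group fits, DESeq2 and removal of single libraries without a block called 0.

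Of 9 mRNAs, the slope on mt-Rnr2 was called for 1 with the block, 1 with the set term (mt-Co3, 62 of 14592 genes), 0 within either set, 0 with the block or the set term without control replicate 4, 4 without the filter (1533 of 26189 genes), and 2 to 4 with 1 library left out. Directions changed as follows. The mt-Nd1 slope was 0.75 with the block, 0.56 with the set term, 0.43 within replicates 3 and 4, and 0.92 and 0.55 with the block or set term without control replicate 4. That of mt-Nd2 was 0.62 with the block, 0.039 with the set term and 0.32 with the block without control replicate 4. That of mt-Nd4 was -1.23 with the block, -0.94 and -0.92 within the sets, -0.017 without treatment, -0.77 with the set term, -2.32 and -1.26 without control replicate 4, and -0.0014 to 0.35 with 1 library left out, lowest without agrin with 11-3F6xb12 replicate 3. That of mt-Co2 was -0.023 to 0.37 with 1 library left out, lowest without agrin with 11-3F6xb12 replicate 1. The slope was -0.44 for mt-Nd6 and 0.26 for mt-Cytb within replicates 3 and 4, and mt-Cytb had 0.0086 without treatment. Among fold changes, mt-Co3 in agrin against control was 0.14 within replicates 1 and 2, and 1 of 9 mRNAs in that comparison was positive with the block. In agrin with 11-3F6xb12 against agrin, mt-Nd4 was 0.072 and mt-Nd6 -0.15 within replicates 1 and 2, mt-Nd4 ran from -0.13 to 0.10 with 1 library left out and reached 0.033, 0.078 and 0.10 with the block, and mt-Nd6 was -0.012 with the block without agrin replicate 4. The cause was not tested. The set term, fits within sets, blocked fits without a library, values without the 2 libraries set apart where the class sums are concerned or the block is used, and removal of mt-Co1 were chosen after seeing the data.

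For class sums, 3 choices moved values by more than the pooled SD: the mean over mRNAs in place of the sum, only mRNAs without a near-identical nuclear copy, and no mt-Co1. In that order, agrin against control gave -0.27, -0.31 and -0.32 for the mRNA level and -0.28, -0.29 and -0.29 for the ratio, and bivalent 13-3B5 against control -0.16, -0.16 and -0.17 for the level and -0.26, -0.26 and -0.28 for the ratio. Agrin with 11-3F6xb12 against agrin gave 0.13, 0.17 and 0.15 for the ratio and 0.45 for the level without copies. Agrin with 13-3B5xb12 gave -0.28 against control for the mean, and 0.13 and 0.12 against agrin without copies and without mt-Co1. The level between the single-arm antibodies was 0.55 within replicates 1 and 2 and 0.10 within replicates 3 and 4. The correlation of mRNA with rRNA was 0.89 within replicates 3 and 4, 0.17 for the mean, 0.015 without mt-Co1, 0.91 without the 2 libraries set apart, and 0.61 to 0.89 with 1 library left out. Counts of 0 to 33 per gene and library limit the tRNAs, and identical nuclear copies limit mt-Co2, mt-Co3, mt-Atp6 and mt-Nd3 at any depth.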
